A study of Mus musculus with 12 samples.

Results

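The lysyl oxidase genes Lox, Loxl1, Loxl2, Loxl3 and Loxl4 were followed across Agilent arrays of mouse neural progenitor cells (NPCs) with altered Srf, Mkl1 or β-actin. All probes whose transcript accession belonged to 1 of these 5 genes were taken, which gave 5 of the 21154 genes named on the array and 10 of its 55681 probes. Lox had 2 probes, Loxl1 had 2, Loxl2 had 3, Loxl3 had 1 and Loxl4 had 2. The family was chosen because Lox showed 1 of the strongest decreases with Actb knockdown in these same arrays. The differences of family probes from shEGFP, every knockdown value of Lox, and counts by the call rule among them are therefore a description with no p-value. Differences between the hairpins, which the choice did not use for the other 4 genes, were tested for those genes.

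Lysyl oxidases are secreted copper enzymes that oxidise lysine residues of collagen and elastin, and the aldehydes so formed link neighbouring molecules into stable fibres. Lox and Loxl1 carry a propeptide that is cut off outside the cell, and Loxl1 is known for its part in keeping elastic fibres. Loxl2, Loxl3 and Loxl4 carry scavenger receptor domains instead, and Loxl2 is known for its action on basement membrane collagen. The family is best known in connective tissue and vessel walls, where cross-linking sets the stiffness of the matrix.

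The NPCs had been differentiated in vitro from mouse embryonic stem (ES) cells and were kept on gelatin with epidermal growth factor and basic fibroblast growth factor. For overexpression, a retrovirus brought in Mkl1, Srf or, as control, the green fluorescent protein EGFP. For knockdown, a retrovirus expressed a short hairpin RNA, and the groups shActb_1 and shActb_2 carried different hairpins to Actb, which encodes β-actin, while the control shEGFP carried one to EGFP. The study describes puromycin selection after infection. It names an NPC line and a further line, derived from that one and carrying doxycycline-inducible reprogramming factors, as the cells of its molecular analyses, and does not say which of them was put on the arrays. Srf binds DNA and regulates transcription together with Mkl1, which monomeric actin holds back. Each of the 6 groups had 2 arrays, 12 in all. The study calls its array duplicates for the Actb knockdown technical, so p-values measure the spread between arrays and not that between cultures.

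Arrays of a group correlated at r = 0.993 to 0.998, and between 59.3% and 72.5% of probes were well above background. Of the 13 NPC markers examined, 11 to 12 were detected in each group. Sox2, Nes and Vim were detected on all 12 arrays, Hes5 on 8 and Olig2 on 1. Some of these markers differed from the control. Sox2 was called lower with Srf (-1.05) and shActb_1 (-1.01). Slc1a3 was called lower with Mkl1 (-1.37), shActb_1 (-1.30) and shActb_2 (-1.11), and Fabp7 with shActb_1 (-1.27). Nes was called higher with Mkl1 (1.16), and Sox9 with Mkl1 (1.04) and shActb_2 (1.02). Of 11 tested, 1 was called lower with Srf, beside 5.53% of all probes called. With Mkl1, 2 of 11 were called higher and 1 lower, beside 2.8%. With shActb_1, 3 of 12 were called lower, beside 1.61%. With shActb_2, 1 of 12 was called higher and 1 lower, beside 6.29%. The log2 difference of the Actb probe from shEGFP was -0.53 with shActb_1 and -0.65 with shActb_2. On the arrays labelled Srf, both Srf probes went against the label. Their log2 differences from EGFP were -2.46 (SE 0.06, adjusted p = 2.57e-06, limma) and -1.40 (SE 0.13, adjusted p = 0.000274, limma). The study describes the introduced Srf as an open reading frame. Whether these probes lie within that sequence was not given in the sources used here, and a probe outside it would not see the transgene. Acta2, a smooth muscle actin gene known as an Srf target, was 3.38 higher than EGFP on the arrays labelled Srf (SE 0.08, adjusted p = 2.57e-06, limma) and 6.93 higher on those labelled Mkl1 (SE 0.08, adjusted p = 2.97e-08, limma). The Mkl1 probes (listed as Mrtfa) were 0.20 and 0.17 above EGFP on the arrays labelled Mkl1 (adjusted p = 0.114 and 0.3, limma). EGFP, Mkl1 and Srf shared 1 slide, and shEGFP and shActb_1 shared another. The shActb_2 arrays lay alone on the third slide, so slide and hairpin cannot be told apart there.

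Of the 5 genes, only Loxl4 had an entry in the RefSeq table of gene start regions used here. Its upstream region is shown because Srf acts by binding DNA and both Loxl4 probes differed between the arrays labelled Srf and Mkl1. The 250 bases before the annotated start lie at chr19:42612807-42613056 on the minus strand of GRCm38.p6. They read, 5′ to 3′ along the gene, with each match to GGGCGG in capitals:
Loxl4 upstream region: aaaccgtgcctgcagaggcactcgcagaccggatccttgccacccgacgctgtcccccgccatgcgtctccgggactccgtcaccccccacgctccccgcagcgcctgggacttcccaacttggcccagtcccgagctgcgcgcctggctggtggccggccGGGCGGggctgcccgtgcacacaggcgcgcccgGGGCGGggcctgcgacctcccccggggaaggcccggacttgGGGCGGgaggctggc
GGGCGG, the core of a GC box, was searched on both strands and found 3 times, at 89 to 84, 56 to 51 and 15 to 10 bases before the start, and 32.7% of the 32851 start regions in the table held at least 1 match in the same window. The CArG box, the sequence Srf is known to bind, was not found in this window, and 1.47% of start regions held it. TATAAA was not found either (12.4% of start regions), nor was CATTCC, the core bound by Tead factors (12.6%). These matches describe letters in a window and were not tied to binding.

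Lox, the founding enzyme of the family, was the member whose level moved most. Its level, given as log2 signal minus the array's 75th percentile, was lower with Mkl1 and Srf than with EGFP. On probe A_66_P138929 the EGFP arrays read -1.08 and -1.17, the arrays labelled Mkl1 -3.06 and -3.25, and the arrays labelled Srf -3.17 and -3.12. In the knockdown experiment the same probe read -0.51 and -0.44 with shEGFP, -3.76 and -4.43 with shActb_1, and -3.23 and -3.57 with shActb_2. The knockdown values chose the family, so they are a description and add no support to the decrease with Mkl1 and Srf.

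The other Lox probe, A_55_P2032678, read -1.83 and -2.10 with EGFP, -3.79 and -3.57 with Mkl1, and -4.17 and -3.96 with Srf. With shEGFP it read -1.36 and -1.37, with shActb_1 -4.81 and -5.51, and with shActb_2 -3.73 and -3.85. Levels of different probes are not compared, since each probe has its own response.

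**Figure D1:**
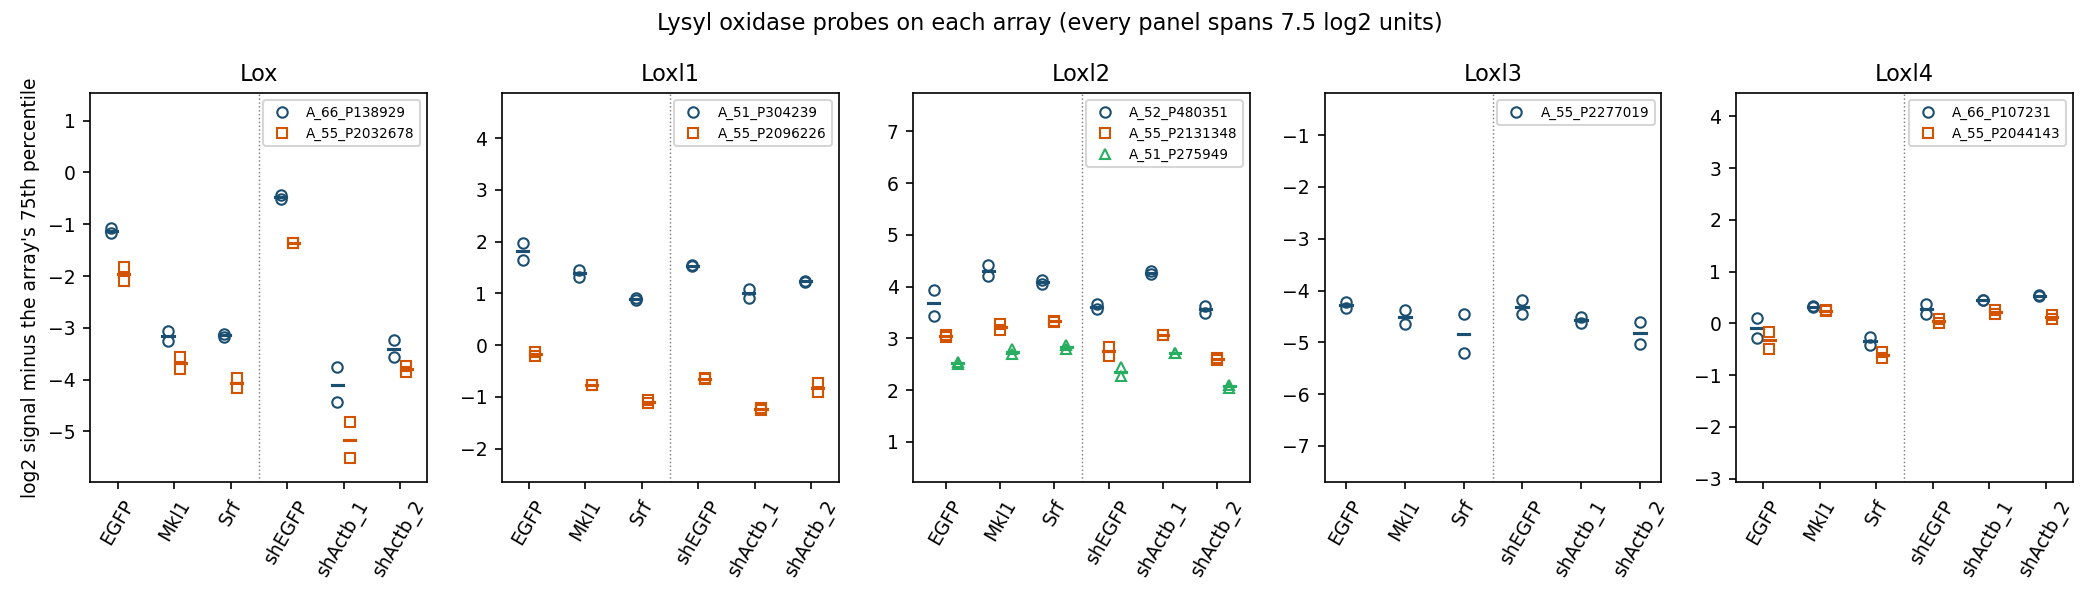
Level of each lysyl oxidase probe on each of the 12 arrays, as log2 signal minus the array's 75th percentile (vertical axis) by group (horizontal axis), with 1 panel per gene and a short line at each group mean. Lox lies between -1.17 and -0.44 on the control arrays for A_66_P138929 and below -3 in every other group, while the other genes stay within about 1 unit of their controls.

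Lox fell on the arrays labelled Srf, with log2 differences from EGFP of -2.02 for A_66_P138929 (SE 0.21, 4.06-fold, adjusted p = 0.00049, limma) and -2.10 for A_55_P2032678 (SE 0.22, 4.29-fold, adjusted p = 0.000503, limma). It fell on the arrays labelled Mkl1 as well, with log2 differences of -2.03 (SE 0.21, 4.09-fold, adjusted p = 0.00103, limma) and -1.72 (SE 0.22, 3.29-fold, adjusted p = 0.00226, limma). Among the probes tested, 0.343% and 0.301% had a lower log2 difference than the Lox probes with Srf, and 0.246% and 0.447% with Mkl1. Both comparisons used the same EGFP arrays. Set directly against each other, Srf and Mkl1 differed by 0.01 (SE 0.21, adjusted p = 0.979, limma) and -0.38 (SE 0.22, adjusted p = 0.25, limma) for the 2 Lox probes, which did not pass the test. When only the 4 compared arrays were fitted, A_55_P2032678 was lower with Mkl1 by the same amount but missed the threshold (adjusted p = 0.0595, limma).

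In the Actb knockdown, which chose the family, the log2 differences of the Lox probes from shEGFP were -3.62 (SE 0.21) and -3.80 (SE 0.22) with shActb_1, or 12.3-fold and 13.9-fold lower. With shActb_2 they were -2.92 (SE 0.21) and -2.42 (SE 0.22), or 7.59-fold and 5.37-fold lower. These were the 7th and 3rd lowest of 36240 log2 differences with shActb_1 and the 28th and 77th lowest of 36177 with shActb_2.

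Lox was higher with shActb_2 than with shActb_1 by 1.37 for A_55_P2032678 (SE 0.22, 2.59-fold) and by 0.69 for A_66_P138929 (SE 0.21) on the log2 scale. These values also come from the arrays that chose the family and are given without a test. Local background around the Lox spots was 45 to 48.5 on the shActb_2 arrays and 23 to 28 on the other 10 arrays, and its part in this difference was not tested. With the normexp background correction the difference of A_55_P2032678 was 0.56.

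The Lox signals of treated cells were low on the scanner's scale, which bounds how large a decrease the arrays can show. For A_66_P138929 the processed signal was 764 and 792 on the shEGFP arrays and 76.6 and 52.1 on the shActb_1 arrays. For A_55_P2032678 the shActb_1 arrays gave 37 and 24.7, the latter 1.3 times the lowest signal that was called well above background on that array. All 10 family probes were nevertheless called well above background on all 12 arrays, and none was saturated. Normexp, which treats low signals differently, gave Lox differences of -1.48 and -1.34 with Srf, -1.48 and -1.16 with Mkl1, -2.66 and -2.32 with shActb_1 and -2.36 and -1.76 with shActb_2, all over 2-fold.

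**Figure D2:**
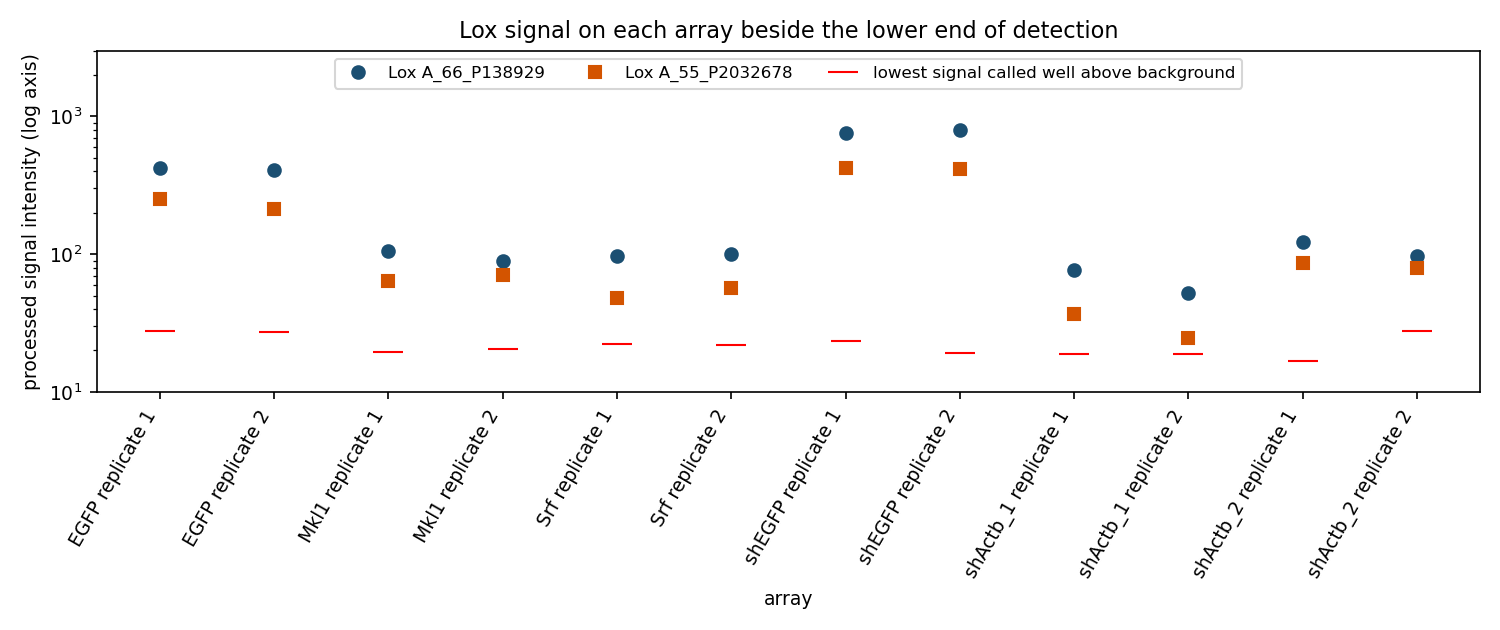
Processed signal intensity of both Lox probes on each array (vertical axis, log scale) with the lowest signal called well above background on that array as a red line. The shActb_1 arrays come closest to the line, with 24.7 against 19 on replicate 2, while the shEGFP arrays lie between 418 and 792.

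The summed signal of mesenchymal or fibroblast markers was lower in every treated group, but most of it came from collagen genes, and single markers went either way. Between 10 and 11 of the 11 markers were detected in each group, and the summed signal, in multiples of the 75th percentile, was 188 to 189 with EGFP, 112 to 132 with Mkl1, 115 to 119 with Srf, 151 to 159 with shEGFP, 115 to 126 with shActb_1 and 93.0 to 96.6 with shActb_2. Such a sum is carried by its brightest probes, here Col1a1, Col1a2 and Col3a1, which are also in the collagen list and made up 166 to 167 of it with EGFP. Without them the sum of the other 8 was not lower with Srf, at 24.1 to 24.9 against 21.0 to 23.4 with EGFP, and was 13.3 to 13.6 with Mkl1, 20 to 20.1 with shEGFP, 12.7 to 13.2 with shActb_1 and 13.6 to 14.4 with shActb_2. With Srf 3 of the 11 were called higher (Thy1, Twist2 and Lum) and 1 lower (Col1a2), with a median log2 difference of 0.21, beside 5.53% of all probes called. Lum was well above background on 3 of the 12 arrays and was tested only through the arrays labelled Srf. With Mkl1 1 of 10 tested was called higher and 3 lower, with a median of -0.61, beside 2.8% of all probes called. With each hairpin 1 of 10 tested markers was called higher and 2 lower, beside 1.61% and 6.29% of all probes called. The medians were -0.50 and -0.58, where those of all probes were 0.01 and -0.02. The log2 differences of Pdgfrb were -1.68, -1.87 and -1.75 with Mkl1, shActb_1 and shActb_2, and those of Dcn were -1.79, -1.96 and -1.55, whereas with Srf they were 0.21 (adjusted p = 0.301, limma) and 0.85 (adjusted p = 0.000107, limma, under 2-fold). Thy1 was the 1 marker higher in all 4 comparisons with a control (1.49 with Srf and 3.10, 1.63 and 2.90 in the others). The summed signal of 5 smooth muscle markers moved the other way, from 5.94 to 8.89 with EGFP and 10.2 to 12.4 with shEGFP to 36.7 to 41.4 with Srf and 94.4 to 148 in the other groups. That of 6 neuron markers, of which 5 to 6 were tested, was 12.2 to 13 with EGFP and 12.7 to 14.6 with shEGFP, and lower in every treated group, at 7.66 to 8.56 with Mkl1, 9.43 to 10.2 with Srf, 8.94 to 9.58 with shActb_1 and 8.63 to 9.35 with shActb_2. Among them Stmn2 was called lower in all 4 comparisons with a control, at -3.88 with Srf, -1.46 with Mkl1, -1.41 with shActb_1 and -1.29 with shActb_2. Tubb3 was called higher with Srf (1.54). The neuron sum is also carried by its brightest probes, here Stmn2 and Snap25. Stmn2 had a mean level of 2.40 with EGFP and -1.47 with Srf, and Snap25 of 2.29 and 2.84. The lower sum with Srf therefore does not describe the list. There 1 of 5 tested neuron markers was called higher and 1 lower, beside 5.53% of all probes called. The part of these cell type markers in the Lox result was not tested. In RNA from whole cultures, fewer cells of a type and less RNA per cell cannot be told apart.

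Loxl1, the other member with a propeptide, had lower mean levels in every treated group on both probes, by less than 2-fold. On A_51_P304239 it read 1.65 and 1.98 with EGFP, 1.45 and 1.32 with Mkl1 and 0.88 and 0.91 with Srf. On A_55_P2096226 the values were -0.21 and -0.13 with EGFP, -0.76 and -0.76 with Mkl1 and -1.12 and -1.06 with Srf. On both probes the mean level was lowest with Srf, higher with Mkl1 and highest with EGFP. The log2 difference of the arrays labelled Srf from EGFP was -0.92 for both probes (SE 0.11 and 0.07, adjusted p = 0.00107 and 0.00013, limma). That of Mkl1 was -0.43 (SE 0.11, adjusted p = 0.0346, limma) and -0.59 (SE 0.07, adjusted p = 0.00169, limma). The Mkl1 value of A_51_P304239 was -0.59 without EGFP replicate 1 and -0.26 without replicate 2. It missed the threshold in the latter case, without either Mkl1 array, with no filter on dim probes and with the compared arrays only (adjusted p = 0.209, limma), where A_55_P2096226 missed as well (0.0935) and A_51_P304239 missed with Srf (0.0561). Tested directly, Loxl1 was lower with Srf than with Mkl1 on both probes, with log2 differences of -0.50 (SE 0.11, adjusted p = 0.0157, limma) and -0.32 (SE 0.07, adjusted p = 0.013, limma). Of the 4 fits that each left out an array, A_51_P304239 missed the threshold in 3, as did A_55_P2096226.

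In the knockdown experiment Loxl1 read 1.55 and 1.52 with shEGFP, 1.08 and 0.92 with shActb_1 and 1.24 and 1.22 with shActb_2 on A_51_P304239. On A_55_P2096226 it read -0.64 and -0.66, -1.26 and -1.22, and -0.74 and -0.91 in the same order. The shActb_1 differences of -0.53 (SE 0.11) and -0.59 (SE 0.07) were larger than the shActb_2 differences of -0.31 (SE 0.11) and -0.18 (SE 0.07). The hairpins differed past the adjusted threshold on A_55_P2096226 (0.41, SE 0.07, adjusted p = 0.00466, limma) and not on A_51_P304239 (0.23, SE 0.11, adjusted p = 0.163, limma).

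Loxl2, which acts on basement membrane collagen among other substrates, was above shEGFP with shActb_1 and near or below it with shActb_2. Its 3 probes were 0.66 (SE 0.15), 0.31 (SE 0.07) and 0.35 (SE 0.08) higher with shActb_1 than with shEGFP on the log2 scale, and differed by -0.06 (SE 0.15), -0.14 (SE 0.07) and -0.28 (SE 0.08) with shActb_2. Over 12 alternatives the shActb_1 values ran from 0.57 to 0.71, 0.22 to 0.40 and 0.27 to 0.44. The shActb_2 values ran from -0.22 to 0.01, -0.28 to -0.05 and -0.39 to -0.20. The direct test between the hairpins passed on all 3 probes, with -0.71 for A_52_P480351 (SE 0.15, adjusted p = 0.011), -0.46 for A_55_P2131348 (SE 0.07, adjusted p = 0.00413) and -0.64 for A_51_P275949 (SE 0.08, adjusted p = 0.00123, all limma), each under 2-fold. The first of these missed the threshold in 2 of the 12 alternatives, with an adjusted p of up to 0.07 in limma without shActb_1 replicate 1 and 0.0559 without shActb_2 replicate 1.

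The Loxl2 levels behind this were 3.56 and 3.66 with shEGFP, 4.30 and 4.24 with shActb_1 and 3.49 and 3.63 with shActb_2 on A_52_P480351. On A_55_P2131348 they were 2.84 and 2.66, 3.06 and 3.06, and 2.59 and 2.62. On A_51_P275949 they were 2.45 and 2.27, 2.71 and 2.71, and 2.10 and 2.05. Mean levels were highest with shActb_1 on every probe, and the shActb_2 arrays overlapped those of shEGFP on A_52_P480351.

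Loxl2 was higher than EGFP by 0.40, 0.29 and 0.31 on the arrays labelled Srf (SE 0.15, 0.07 and 0.07), and the latter 2 probes passed (adjusted p = 0.0937, 0.0256 and 0.0211, limma). With Mkl1 it was higher by 0.62, 0.18 and 0.21 (SE 0.15, 0.07 and 0.07), and A_52_P480351 alone passed (adjusted p = 0.0271, 0.12 and 0.0863, limma). The EGFP arrays read 3.44 and 3.93 on A_52_P480351, so that probe's duplicates differed by 0.48, close to the difference tested. Leaving out EGFP replicate 1 or 2 gave 0.16 or 0.64 with Srf, the latter past the threshold, and 0.38 or 0.86 with Mkl1, the former missing it. Which probe passes therefore differed between the arrays labelled Srf and Mkl1, and Srf against Mkl1 passed on none of the 3 (adjusted p = 0.354, 0.355 and 0.398, limma).

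Loxl4, a scavenger receptor member like Loxl2, differed between the arrays labelled Srf and Mkl1. On A_66_P107231 it read -0.29 and 0.10 with EGFP, 0.34 and 0.31 with Mkl1 and -0.42 and -0.27 with Srf. On A_55_P2044143 it read -0.49 and -0.17, 0.23 and 0.26, and -0.66 and -0.55. Mean levels were higher with Mkl1 than with EGFP on both probes, and the Srf arrays overlapped those of EGFP on A_66_P107231. Loxl4 was lower with Srf than with Mkl1, with log2 differences of -0.67 (SE 0.13, adjusted p = 0.0074, limma) and -0.86 (SE 0.10, adjusted p = 0.000961, limma). The former missed the threshold without Srf replicate 1 (adjusted p = 0.0559, limma). Against EGFP, Mkl1 differed by 0.42 (SE 0.13, adjusted p = 0.0555, limma) and 0.58 (SE 0.10, adjusted p = 0.00858, limma). The former was 0.22 without EGFP replicate 1 and 0.62, past the threshold (adjusted p = 0.00509, limma), without replicate 2, and the latter missed with the compared arrays only (adjusted p = 0.133, limma). Srf differed by -0.25 (SE 0.13, adjusted p = 0.19, limma) and -0.28 (SE 0.10, adjusted p = 0.0891, limma), neither past the threshold. The Srf differences also turned on the EGFP arrays, and both probes passed without replicate 1 (-0.45 and -0.44, adjusted p = 0.0184 and 0.0107, limma) and were at -0.05 and -0.12 without replicate 2.

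In the knockdown, Loxl4 read 0.37 and 0.19 with shEGFP, 0.45 and 0.46 with shActb_1 and 0.54 and 0.52 with shActb_2 on A_66_P107231, and 0.01 and 0.08, 0.18 and 0.26, and 0.08 and 0.16 on A_55_P2044143. The log2 differences were 0.17 on both probes with shActb_1 (SE 0.13 and 0.10) and 0.25 (SE 0.13) and 0.07 (SE 0.10) with shActb_2. The hairpins did not differ past the threshold (0.08 and -0.10, adjusted p = 0.673 and 0.485, limma).

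Loxl3, the remaining scavenger receptor member, was close to the detection limit. Its levels ran from -5.21 to -4.18 over the 12 arrays, and its signal was 1.09 to 3.1 times the lowest signal called well above background. The difference from EGFP was -0.55 with Srf (SE 0.25, adjusted p = 0.154, limma) and -0.23 with Mkl1 (SE 0.25, adjusted p = 0.556, limma). That from shEGFP was -0.26 (SE 0.25) with shActb_1 and -0.51 (SE 0.25) with shActb_2. No difference passed, and without Srf replicate 1 the Srf difference was -0.93 (adjusted p = 0.0329, limma), against -0.17 without replicate 2 (adjusted p = 0.667, limma).

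**Figure D3:**
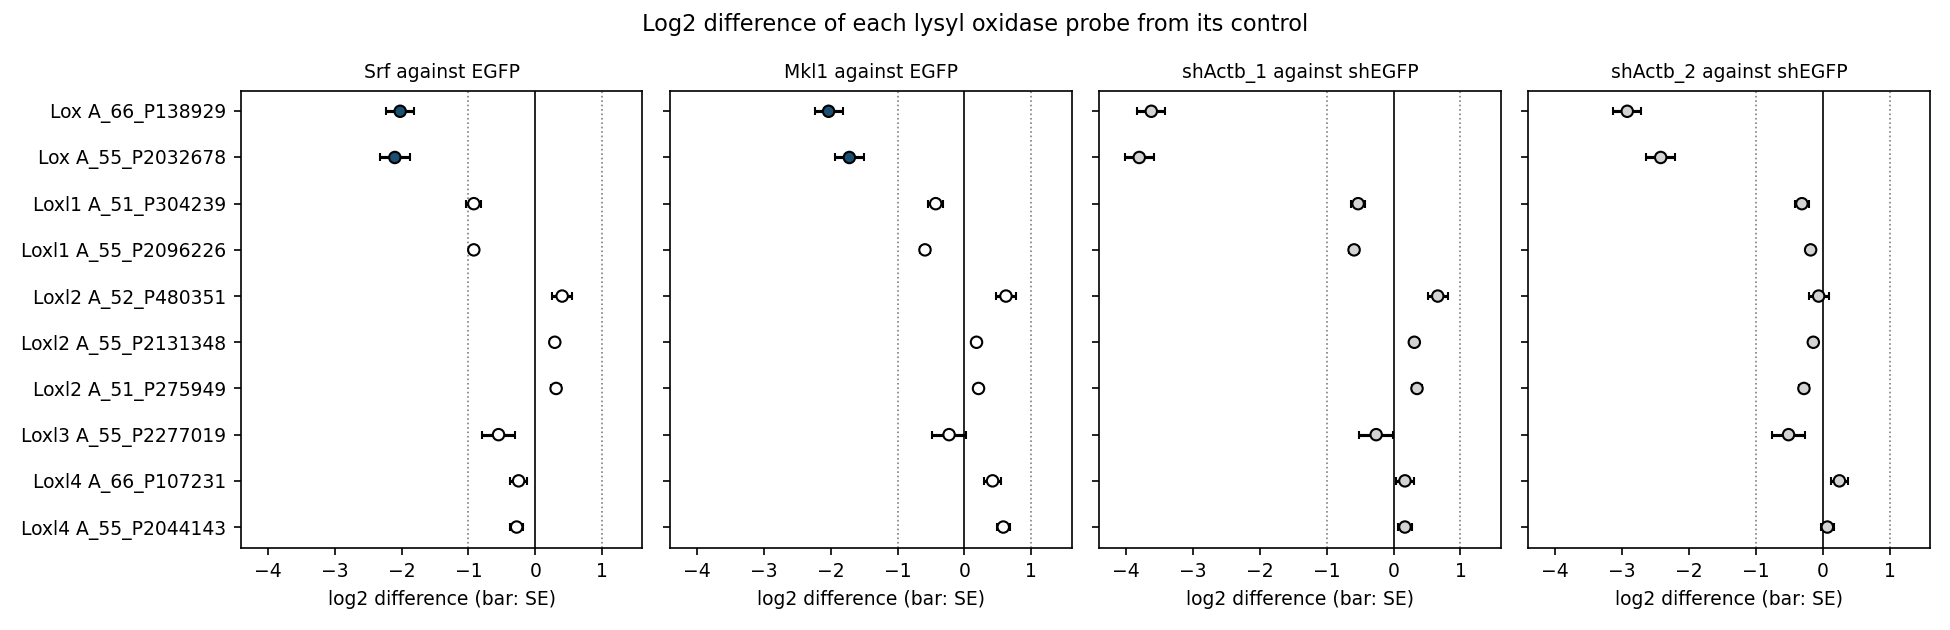
Log2 difference of each lysyl oxidase probe from its control (horizontal axis; bar, SE; n = 2 arrays per group), with dotted lines at 2-fold. In the Srf and Mkl1 panels the Lox probes alone passed an adjusted p of 0.05 and 2-fold (filled dark, -2.10 to -1.72). The knockdown panels (grey) show values without a test, and the Loxl2 probes lie right of 0 in 3 of the panels and left of it with shActb_2.

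By the call rule of an adjusted p under 0.05 and over 2-fold, 2 of the 10 family probes were called in Srf against EGFP, both of Lox and both lower, beside 5.53% of all 35556 probes tested (2.22% lower). The same 2 were called with Mkl1, beside 2.8% of 35767 probes (1.49% lower), and none of the 10 was called in Srf against Mkl1, beside 5% of 35718. In that last comparison 4 of the 10 passed an unadjusted p of 0.05 and 4 the adjusted p alone in limma, all lower with Srf and all of Loxl1 and Loxl4, beside 14.5% of all probes. With shActb_1 the called probes were again both of Lox, beside 1.61% of 36240 probes (1.12% lower), and likewise with shActb_2, beside 6.29% of 36177 (4.57% lower). The family was chosen on these knockdown contrasts, and nothing is read from the latter counts. Between the hairpins none of the 8 probes other than Lox was called (limma; 4 at an unadjusted p under 0.05), beside 5.02% of all 35427 probes.

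By the adjusted p alone, 2 family probes were higher and 4 lower with Srf, beside 13.1% and 12.4% of all probes, and 2 were higher and 4 lower with Mkl1, beside 12.7% and 8.2%. The probes that were lower belonged to Lox and Loxl1 in both. Of the 8 probes other than Lox, 1 was higher and 3 lower with shActb_2 than with shActb_1, beside 16.6% and 15.4%. The median log2 difference of the 10 probes was -0.42 with Srf and -0.03 with Mkl1, where the medians of all probes were -0.03 and -0.02.

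Over the 12 arrays the Lox probes correlated at r = 0.98 with each other. Both Loxl1 probes followed A_66_P138929 at r = 0.77, Loxl3 at 0.57, the Loxl4 probes at -0.27 and -0.25, and the Loxl2 probes at -0.59, -0.27 and -0.27. These values describe 12 arrays in 6 groups that share controls and slides. Among 21917 named probes, the pattern most like that of Lox by Pearson r was that of Galk2, a sugar kinase (r = 0.968), followed by Hdac5, a class IIa histone deacetylase (r = 0.96), Olfml2b (0.953), Hacd4 (0.95) and Gmds (0.949). Their own log2 differences were small, between -0.27 and -0.80 over the 4 comparisons with a control. The nearest patterns to Loxl1 were Lig1, a DNA ligase (0.965), Rhof (0.947) and Tubb2a (0.943). Those nearest to Loxl2 were Tcf7, a Wnt pathway transcription factor (0.962), Mob1b (0.944) and Secisbp2 (0.932). Those nearest to Loxl4 were Igf2bp2, an RNA-binding protein (0.985), Chmp6 (0.969) and Bcat1 (0.967), and those nearest to Loxl3 were Slc45a1 (0.883), Kcnk15 (0.879) and Fam221a (0.873).

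The genes that lysyl oxidases work with were examined by list, with 1 probe per gene. Of 13 collagen genes, which encode the substrates, 12 were tested with Srf, of which 3 rose and 1 fell, beside 5.53% of all probes called. Col4a1 and Col4a2, the chains of the main basement membrane collagen, were 1.57 (SE 0.19, adjusted p = 0.00101, limma) and 1.61 (SE 0.18, adjusted p = 0.000778, limma) higher on the log2 scale, and Col5a3, a minor fibrillar chain, was 2.09 higher (SE 0.19, adjusted p = 0.000273, limma). Col1a2, a chain of the most abundant fibrillar collagen, fell by 1.09 (SE 0.10, adjusted p = 0.000247, limma).

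With Mkl1, 3 of 11 tested collagen genes rose and 3 fell, beside 2.8% of all probes called. The 3 that fell include Col24a1, which was tested only through the group where it is high. The same 3 rose, Col4a1 by 1.15 (SE 0.19, adjusted p = 0.00602, limma), Col4a2 by 1.13 (SE 0.18, adjusted p = 0.00581, limma) and Col5a3 by 2.50 (SE 0.19, adjusted p = 0.000341, limma). Col11a1 and Col2a1, fibrillar chains known from cartilage, fell, with log2 differences of -2.63 (SE 0.14, adjusted p = 8.2e-05, limma) and -1.30 (SE 0.15, adjusted p = 0.00179, limma). Col24a1 was not well above background on either array labelled Mkl1. It was at least 1.98-fold lower there, a bound under the 2-fold of the call rule. It was tested only through its EGFP arrays, and the call was lost without the filter on dim probes (adjusted p = 0.0658), with a variance trend (0.0789), under normexp (-0.29) and quantile normalization (-0.87), with the compared arrays only, and without EGFP replicate 1 or either Mkl1 array. The median over the list was 0.07 with Srf and -0.52 with Mkl1, where the medians of all probes were -0.03 and -0.02. Fitted on the compared arrays only, Col4a1 and Col4a2 missed the threshold with Srf (adjusted p = 0.06 and 0.0556, limma). With Mkl1, Col5a3 (adjusted p = 0.0628), Col4a1 and Col4a2 (both 0.117) and Col2a1 (0.0793, all limma) then missed it too, and Col11a1 alone passed. With Mkl1, Col4a1 and Col4a2 were 0.81 and 0.79 higher without EGFP replicate 1, and Col2a1 differed by -0.60 under normexp, all under 2-fold.

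With shActb_1, 1 of 10 tested collagen genes was called higher and 2 lower, and with shActb_2, 2 of 10 were called higher and 2 lower, beside 1.61% and 6.29% of all probes called in either direction. The log2 differences of Col5a3 were 1.67 with shActb_1 and 1.30 with shActb_2, and those of Col11a1 were -2.46 and -3.43. Those of Col2a1 were -1.46 and -0.18, the former being -0.72 under normexp. With shActb_2, Col4a2 differed by 1.03 and Col11a2 by -1.01, the latter by -0.46 without shActb_2 replicate 2, -1.57 without replicate 1, -0.44 under normexp and -0.66 under quantile normalization.

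Of 18 elastic fibre genes, 1 rose and 2 fell with Srf, beside 5.53% of all probes called, and 4 fell with Mkl1, beside 2.8%. Fbln5, a fibulin that binds elastin, rose by 2.57 with Srf (SE 0.16, adjusted p = 5.62e-05, limma) and fell with Mkl1 (-1.20, SE 0.16, adjusted p = 0.00275, limma). The difference between Srf and Mkl1 was 3.77 (SE 0.16, adjusted p = 9.29e-06, limma), from levels of -0.68 with Srf, -4.45 with Mkl1 and -3.25 with EGFP. This is the Fbln5 probe detected on all 12 arrays, and the other Fbln5 probe was above background on none. The Mkl1 difference of Fbln5 was under 2-fold with normexp (-0.51) and without EGFP replicate 2 (-0.92). Fbn2, a fibrillin, fell with Srf (-1.43, SE 0.17, adjusted p = 0.00104, limma) and with Mkl1 (-2.02, SE 0.17, adjusted p = 0.000532, limma). Efemp1 (fibulin-3) fell by 1.55 with Srf (SE 0.11, adjusted p = 8.81e-05, limma). Mfap4, a microfibril protein, fell by 1.34 with Mkl1 (SE 0.21, adjusted p = 0.00498, limma), and Ltbp2, a latent TGF-β binding protein, fell by 1.08 (SE 0.18, adjusted p = 0.00713, limma). With the compared arrays only, none of the 4 Mkl1 calls in this list passed (adjusted p = 0.0679 for Fbn2, 0.0657 for Mfap4 and 0.0962 for Fbln5, limma).

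In the knockdown, 2 of the elastic fibre genes were called lower with shActb_1, Fbn2 at -1.73 and Fbln5 at -1.05, and 1 with shActb_2, Fbln5 at -1.12, beside 1.12% and 4.57% of all probes called lower. Fbln5 was under 2-fold with normexp for both hairpins (-0.71 and -0.84) and with quantile normalization for shActb_2 (-0.95). Elastin itself was called in none of the 4 comparisons. The list medians were -0.16, -0.33, -0.25 and -0.24 for Srf, Mkl1, shActb_1 and shActb_2, where the medians of all probes lay between -0.03 and 0.01.

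Of 13 genes for propeptide removal, matrix partners and copper supply, 11 were tested. None was called with Srf (7 at an unadjusted p under 0.05, 5 by the adjusted p alone, limma), beside 5.53% of all probes called. With Mkl1 1 was called, beside 2.8% of all probes. This was Pcolce2, an enhancer of procollagen cleavage, which rose by 1.08 (SE 0.07, adjusted p = 0.000195, limma). It missed with the compared arrays only (adjusted p = 0.0631, limma). Bmp1, the protease known to release active Lox, was 0.71 higher with Srf and the log2 difference of Slc31a1, the copper importer, was -0.82, both under 2-fold. Neither hairpin gave a call in this list. Of 15 genes for collagen modification and folding, 14 were tested and none was called in the 4 comparisons with a control (12, 8, 3 and 8 at an unadjusted p under 0.05 for Srf, Mkl1, shActb_1 and shActb_2, and 7, 5, 3 and 6 by the adjusted p alone, limma). By the adjusted p alone 25.5%, 20.9%, 9.4% and 40.2% of all probes passed in the same comparisons, and 5.53%, 2.8%, 1.61% and 6.29% were called. Among 5 other amine oxidases, Aoc3 was at least 3.45-fold higher with shActb_2 than with shEGFP, but its log2 difference was 0.83 under normexp. It was not well above background on either shEGFP array, so it was tested only through the group where it is high, and it dropped out when both groups had to be above background.

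**Figure D4:**
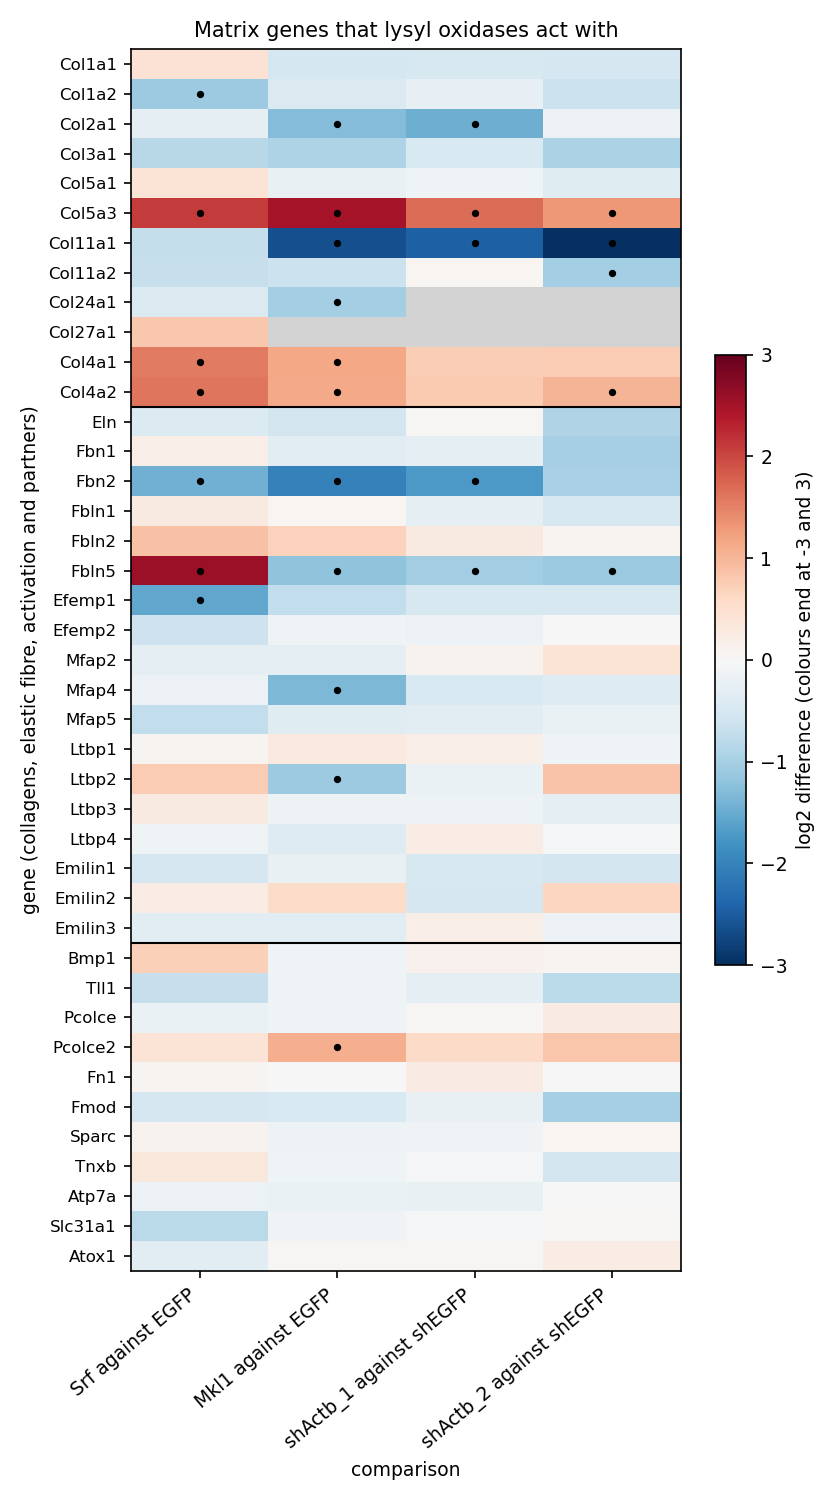
Log2 difference (colour, ending at -3 and 3) of collagen, elastic fibre and partner genes (vertical axis) in the 4 comparisons with a control (horizontal axis), with a dot where a gene was past an adjusted p of 0.05 and 2-fold and grey where it was not tested, the knockdown columns being a description. Col5a3 is higher in all 4 columns, Fbn2 and Col11a1 are lower in all 4, and Fbln5 is at 2.57 with Srf and between -1.20 and -1.05 in the others.

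In the 4 comparisons with a control, the direction of Lox held under every alternative. Over 12 of them the log2 difference of A_66_P138929 ran from -2.07 to -1.48 with Srf and from -2.13 to -1.48 with Mkl1, and that of A_55_P2032678 from -2.24 to -1.34 and from -1.85 to -1.16. That of Loxl1 on A_55_P2096226 ran from -0.96 to -0.79 with Srf and from -0.64 to -0.51 with Mkl1. Loxl2 stayed above 0 with Srf, Mkl1 and shActb_1, while its A_52_P480351 value with shActb_2 crossed 0.

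**Figure D5:**
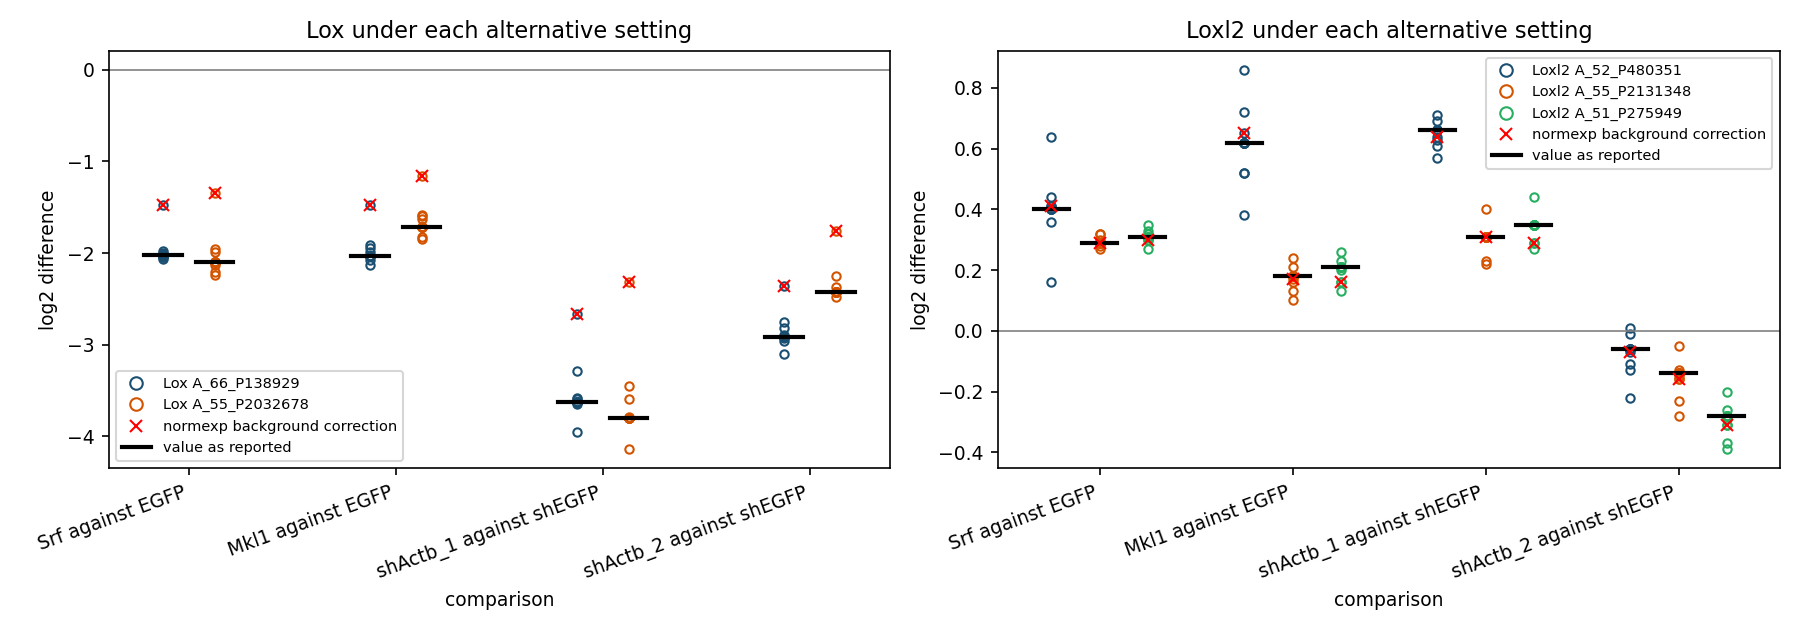
Log2 difference of the Lox probes (left panel) and the Loxl2 probes (right panel) in the 4 comparisons with a control (horizontal axis), as reported (black line) and under each alternative (circles; crosses, normexp background correction). Lox stays below 0 everywhere and is nearest to it under normexp, at -1.16 with Mkl1, and the Loxl2 probes lie above 0 in 3 comparisons and around or below it with shActb_2.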

How the data were processed

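Total RNA was labelled with cyanine 3 and hybridized to 12 1-colour Agilent arrays. The deposited files hold the authors' scanner output from Feature Extraction 11.5.1.1, of which the processed signal intensity of each spot, background-subtracted and not scaled between arrays, was used. The deposited table of log2 values differed from log2 of these intensities by a constant per array (within 0.01 for 100% of probes, medians -4.08 to -3.67) and was used as an alternative. Its further centring is not known.

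Here, log2 was taken, control spots and outlier spots were left out, spots of a probe were averaged and the array's 75th percentile (signal 843.7 to 1149.6) was subtracted. RefSeq accessions (GRCm38.p6, names only) named 28026 of 55681 probes (50.3%). All 12 arrays were fitted with limma 3.58.1 (lmFit and eBayes, R 4.3.3), 1 mean per group, on probes that the scanner software put well above background on all arrays of 1 or both compared groups, with Benjamini-Hochberg adjustment over all of them. Tests were two-sided. A probe was called at an adjusted p under 0.05 and over 2-fold. The fit was tested on simulated data.

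The members and gene lists were chosen with earlier results of these data known. Named genes were all family probes, up to 3 called increases and decreases per list and comparison, 5 pattern neighbours of Lox and 3 of each other member. Bmp1, Slc31a1, Ltbp2, Thy1, Pdgfrb, Dcn, Lum, Twist2, Col1a2, Col1a1 and Col3a1 were added after values were seen. So were Sox2, Sox9, Fabp7, Slc1a3, Nes, Stmn2, Snap25, Tubb3, elastin and uncalled levels of named genes. Alternatives were normexp (offset 50, on median spot signals, as mean signals were not used here), quantile normalization, the log2 table, other filters on dim probes, the compared arrays only, a replicate block, a variance trend, the adjusted p alone and each array left out. The number of arrays, 2 per group, limits the precision.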

Additional observations from a re-analysis of the deposited data

Results flagged for a closer look

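Tested directly, the hairpins against Actb gave different levels for 4 of the 8 lysyl oxidase probes other than Lox (shActb_2 minus shActb_1, adjusted p in limma past the threshold, 1 higher and 3 lower), beside 16.6% of all probes higher and 15.4% lower. The log2 difference was 0.41 for the Loxl1 probe A_55_P2096226. It was -0.71, -0.46 and -0.64 for the Loxl2 probes A_52_P480351, A_55_P2131348 and A_51_P275949, the first of which passed in 10 of 12 alternatives. Lox, whose knockdown values chose the family, is left out of this test. Loxl1 lay further below shEGFP with shActb_1, while Loxl2 lay above shEGFP with shActb_1 and not with shActb_2. Actb itself differed between the hairpins by -0.12 (adjusted p = 0.11, limma). The shActb_2 arrays were the only ones on their slide, so slide and hairpin cannot be told apart.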

How the results depend on the processing

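Each probe difference was recomputed under 12 alternatives, and of 120 values per comparison 119 (Srf against EGFP), 118 (Mkl1 against EGFP), 115 (Srf against Mkl1) and 118 (between hairpins) kept their direction and their side of the call rule with its 2-fold limit, while 109 and 108 moved by less than the duplicate spread with shActb_1 and shActb_2. By the adjusted p alone the family counts were 6, 6 and 4 (Srf, Mkl1 and Srf against Mkl1) and, as a description, 7, 3 and 6 (shActb_1, shActb_2 and between hairpins). Passes of that threshold under 2-fold were less stable: the passing Loxl2 probes with Srf passed in 7 of 12 alternatives, Loxl1 A_51_P304239 and Loxl2 A_52_P480351 with Mkl1 in 7, Loxl4 A_55_P2044143 with Mkl1 in 10, the Loxl1 probes in Srf against Mkl1 in 9, Loxl4 A_66_P107231 there in 11, and Loxl2 A_52_P480351 between hairpins in 10. The compared arrays only gave 1 with Mkl1, and normexp gave 0 between hairpins (1 Lox probe as reported, a description). Leaving out an array gave 2 to 3 with Srf (3 without EGFP replicate 1, where Loxl1 A_51_P304239 was -1.09), 2 with Mkl1, 0 for Srf against Mkl1 and, as a description of Lox probes only, 2 with each hairpin and 1 to 2 between hairpins (2 without shActb_1 replicate 1, where Lox A_66_P138929 was 1.03). Reversed values were uncalled differences: Loxl3 with Mkl1 (0.04 under quantile normalization), Lox A_66_P138929 in Srf against Mkl1 (0 under normexp, -0.13 under quantile, and with an array left out -0.08 to 0.11) and Loxl3 in Srf against Mkl1 (-0.70 to 0.05 with an array left out). The cause was not tested. Same-numbered arrays correlated at 0 to 0.23 in their deviations. This does not settle whether the numbers pair the arrays, and the main fit did not pair them. With the replicate block the family counts stayed at 2, 2 and 0 (and 2, 2 and 1 in the knockdown). Loxl4 A_55_P2044143 with Srf then passed the adjusted p alone.

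For the gene lists these alternatives were chosen after seeing the data. The compared arrays only gave 2 collagens with Srf and, with Mkl1, 1 collagen, 0 elastic fibre and 0 partner genes. Normexp gave 2 elastic fibre genes with Mkl1, 1 with shActb_1 and 0 with shActb_2, and 0 amine oxidases with shActb_2. Quantile normalization gave 1 elastic fibre gene with shActb_1, 3 with shActb_2 and 1 amine oxidase with Srf. The log2 table gave 2 elastic fibre genes with shActb_2, and the filter on both groups 0 amine oxidases there. Leaving out an array gave 0 to 1 collagen modification gene with Srf, 4 to 6 collagens and 3 to 4 elastic fibre genes with Mkl1, 1 to 2 elastic fibre genes with shActb_1, and with shActb_2 2 to 4 collagens, 1 to 4 elastic fibre genes (4 without shEGFP replicate 2) and 0 to 1 partner gene. Over all probes, calls under normexp fell from 1966 to 839 (Srf), 1002 to 369 (Mkl1), 583 to 250 (shActb_1), 2275 to 678 (shActb_2) and 1779 to 418 (between hairpins). Mkl1 calls were 103 with the compared arrays only and 2217 without EGFP replicate 2.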
